A study of Mus musculus with 3 samples.

Results

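Introns that remained in the mature RNA were compared among wild-type (WT) mouse embryonic stem (ES) cells, ES cells without the Polycomb subunit Pcgf1 (Pcgf1-/-) and Pcgf1-/- cells to which the gene had been returned (Pcgf1-/-+Pcgf1). A retained intron event is an intron that one reconstructed form of a gene keeps as exon (the ON form) and another form splices out (the OFF form). The events were all rows of the 3 deposited event lists whose type, without a leading X for inexact ends, began with IR (1 intron) or MIR (several introns in a row), matched by gene name and coordinates. Among 4146 such events, 3187 stood in all 3 lists, in 1774 genes or loci, beside 17859 exon skipping events that also stood in all 3. Of the 3187, 848 had ON and OFF forms at 0 in every sample, 283 had both at 0 in 1 or 2 samples, and 231 had a mean ON plus OFF under 1 FPKM (fragments per kilobase of transcript, scaled to the mapped fragments of the library). The 1825 events that remained, in 1273 genes or loci, are called measured here, and the retention of each is its ON FPKM as a percent of ON plus OFF.

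All 3 cell lines were of strain C57BL/6 and were grown with serum and leukemia inhibitory factor on mouse embryonic fibroblast feeders inactivated with mitomycin-C. Per the study's methods, the Pcgf1-/- cells came from Cas9 cutting with 2 guide RNAs, a brief puromycin selection and picking of single colonies, and how many colonies gave the sequenced line is not given in the sources used here. The Pcgf1-/-+Pcgf1 cells were Pcgf1-/- cells infected with a lentivirus that carried full-length Pcgf1 cDNA with an N-terminal Flag tag, and were selected with puromycin. Each genotype was sequenced as 1 sample of poly-A selected RNA, so that no difference below has a replicate check, no test was made and no error is given. The kit as described does not mark strand, and where genes overlap the reads of both strands cannot be told apart. Pcgf1 itself has no retained intron event in the lists. At the gene level it was listed at 13.95 FPKM in the WT sample. Pcgf1-/- had 5.88 FPKM and Pcgf1-/-+Pcgf1 had 7.86 FPKM. The study reports a truncated Pcgf1 transcript with a frame shift in Pcgf1-/- cells, and no Pcgf1 protein there by Western blot. For the Pcgf1-/-+Pcgf1 cells it examined Flag-tagged Pcgf1 by Western blot and reports that embryoid body size was restored. It also reports that the tagged protein was pulled down together with Ring1B, BcoR and Rybp. The gene-level value, taken from first-exon and last-exon values, does not tell truncated from full-length RNA.

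Facts of the whole series that touch the events are few. By the spacing of the lowest gene values, 1 FPKM stood for 19.3, 21.2 and 20.3 fragments per kilobase in WT, Pcgf1-/- and Pcgf1-/-+Pcgf1. These are estimates, and since the FPKM of a form is shared out by a model and not counted, no counting interval is given. Pou5f1, which defines ES cells, was at 670, 518 and 626 FPKM in the same order, and Nanog was at 68.2, 46.3 and 123 FPKM. Klf2 (517, 590 and 357), Tdgf1 (449, 519 and 394), Esrrb (85.3, 94.8 and 77.2) and Zfp42 (35.5, 51.7 and 35.7) were each highest in Pcgf1-/-. Sox2 was listed at 0 in WT and Pcgf1-/-, and Dppa5a was listed at 0 in Pcgf1-/- and Pcgf1-/-+Pcgf1. By Western blot the study found no significant change of Oct4, Nanog and Sox2 protein in Pcgf1-/- cells. Of 23 feeder fibroblast markers 19 were listed, with summed FPKM of 457, 410 and 400 and with 1, 3 and 2 of them at 0. With a pseudocount of 0.1 FPKM, 6 of the 19 were more than 2-fold lower in Pcgf1-/- than in WT, and none passed 2-fold upward. By the same rule Pcgf1-/-+Pcgf1 had 5 higher and none lower than Pcgf1-/-, and 1 higher and 2 lower than WT. Sparc, the highest marker, stood at 227, 266 and 254 FPKM, and Tagln was above 0 in WT alone. The share of all genes past 2-fold is not given here, so these counts have no background. The part of feeder cells in the retention values was not tested. In a bulk sample, fewer cells of a type and less RNA per cell cannot be told apart.

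Most introns are removed while the gene is still being transcribed. An intron that stays can hold the RNA in the nucleus, can bring a premature stop codon that sends the RNA to nonsense-mediated decay, or, where it is short and open in frame, can simply be read as protein. Transcripts with kept introns are known for genes of splicing factors and for hosts of small nucleolar RNAs (snoRNAs), whose introns carry the snoRNA. Pcgf1 belongs to PRC1.1, a form of Polycomb repressive complex 1 that acts on chromatin.

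The introns on which the results turn are printed first. All are in mm10, named by their own first and last base, and are read 5′ to 3′ on the strand of the gene, with letters from GENCODE vM21 transcripts that keep the intron. Capitals mark the first and last 2 bases, which are GT and AG in most spliceosomal introns. The first 4 had large differences between WT and Pcgf1-/-. Hspa5, Mrps26 and Aspm are kept in the annotation only by forms of the biotype retained_intron, and Akap8l also by a protein-coding form.
Hspa5, chr2:34773934-34774027, plus strand, 94 bases: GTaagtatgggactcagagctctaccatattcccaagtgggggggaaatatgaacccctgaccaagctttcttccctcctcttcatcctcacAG
Mrps26, chr2:130564228-130564307, plus strand, 80 bases: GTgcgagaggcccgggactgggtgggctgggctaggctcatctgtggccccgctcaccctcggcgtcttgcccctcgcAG
Aspm, chr1:139470584-139470671, plus strand, 88 bases: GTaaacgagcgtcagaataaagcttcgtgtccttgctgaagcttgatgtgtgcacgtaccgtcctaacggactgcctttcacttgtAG
Akap8l, chr17:32338355-32338456, minus strand, 102 bases: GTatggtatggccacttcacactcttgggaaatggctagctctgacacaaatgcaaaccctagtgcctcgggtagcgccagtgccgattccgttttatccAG

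A second set shows introns that a protein-coding form keeps and that were kept in part. The Mga, Taf15 and Hnrnpm introns all have a length that divides by 3, and each is annotated as coding in the form that keeps it.
Mga, chr2:119946248-119946364, plus strand, 117 bases: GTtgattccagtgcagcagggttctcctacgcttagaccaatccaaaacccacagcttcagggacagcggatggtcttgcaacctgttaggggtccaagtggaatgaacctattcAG
Taf15, chr11:83504711-83504830, plus strand, 120 bases: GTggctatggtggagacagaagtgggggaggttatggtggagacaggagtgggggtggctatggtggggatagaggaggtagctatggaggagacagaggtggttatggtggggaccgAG
Hnrnpm, chr17:33666530-33666646, minus strand, 117 bases: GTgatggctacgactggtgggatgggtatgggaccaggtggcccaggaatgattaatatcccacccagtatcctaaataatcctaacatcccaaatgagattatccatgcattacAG

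The last set shows stretches that lie inside coding exons and that another annotated form removes. Several of them do not carry GT and AG at their ends.
Hsp90ab1, chr17:45571482-45571518, minus strand, 37 bases: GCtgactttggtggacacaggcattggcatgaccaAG
Kifc1, chr17:33884682-33884741, minus strand, 60 bases: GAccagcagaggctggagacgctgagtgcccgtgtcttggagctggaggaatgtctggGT
Enah, chr1:181919457-181919558, minus strand, 102 bases: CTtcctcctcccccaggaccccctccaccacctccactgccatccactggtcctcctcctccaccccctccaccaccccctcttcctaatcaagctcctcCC
Myo9b, chr8:71348902-71348934, plus strand, 33 bases: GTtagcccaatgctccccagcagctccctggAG

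Most of the measured introns were listed as fully spliced. In WT the kept form was above 0 in 339 of the 1825 events (18.6%), in Pcgf1-/- in 285 (15.6%) and in Pcgf1-/-+Pcgf1 in 294 (16.1%), and the median retention was 0 in each sample. The mean retention was 11.2% in WT, 10.3% without Pcgf1 and 10.5% in Pcgf1-/-+Pcgf1. The samples differed mainly in the events kept at 20% to under 50%, of which WT had 91, Pcgf1-/- had 53 and Pcgf1-/-+Pcgf1 had 54. Events kept at 50% to under 100% numbered 42, 49 and 46, and events kept at 100%, with the spliced form listed at 0, numbered 139, 130 and 136.

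**Figure D1:**
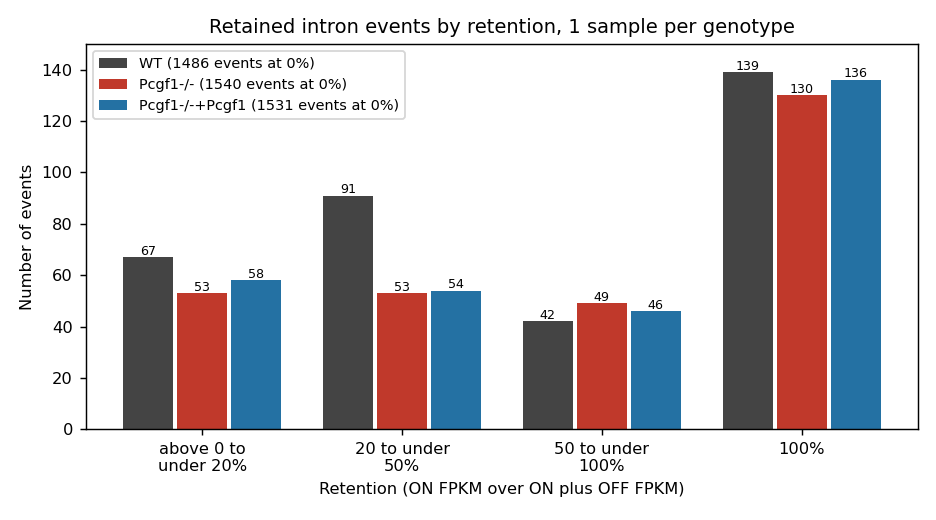
Number of measured retained intron events (y axis) in 4 ranges of retention (x axis, ON FPKM over ON plus OFF FPKM, %) in the 1 sample of each genotype, with the events at 0% given in the key. WT had 91 events at 20% to under 50% against 53 in Pcgf1-/- and 54 in Pcgf1-/-+Pcgf1, and at 100% it had 139 against 130 and 136.

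Retention separated according to what the annotation says of the form that keeps the intron. A protein-coding transcript keeps the intron in 194 measured events, and of these 154 in WT (79.4%), 154 without Pcgf1 (79.4%) and 157 in Pcgf1-/-+Pcgf1 (80.9%) were kept above 0. In another 1396 events a transcript of the biotype retained_intron, a noncoding form that holds an intron, keeps it and no protein-coding transcript does. Forms of other biotypes may also keep these introns. There the kept form was above 0 in 154 events in WT (11.0%), 109 without Pcgf1 (7.81%) and 113 in Pcgf1-/-+Pcgf1 (8.09%). The count that was higher in WT thus lay mainly among these introns and not among those kept by a protein-coding form. The other annotated forms, 184 events, gave 19, 10 and 14. The 51 events with no annotated form that keeps the intron gave 12, 12 and 10.

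**Figure D2:**
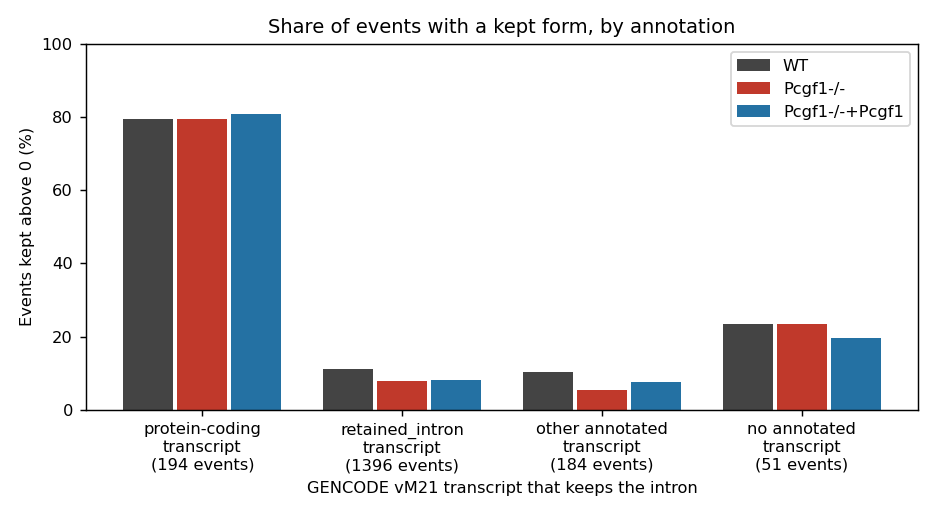
Percent of measured events with a kept form above 0 (y axis) by the GENCODE vM21 transcript that keeps the intron (x axis), 1 bar per sample. Introns kept by a protein-coding transcript stood at 79.4% to 80.9% in every sample. Introns kept by a retained_intron transcript and by no protein-coding one stood at 11.0% in WT, 7.81% without Pcgf1 and 8.09% in Pcgf1-/-+Pcgf1.

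In 160 events of 134 genes at least 50% was kept in every sample, and 111 of these were at 100% in all 3. In 1433 events the intron was spliced out in every sample, and 232 lay between. The 160 kept introns had a median length of 150 bases, the 232 one of 268 bases and the 1433 spliced introns one of 346 bases. A protein-coding transcript keeps the intron in 128 of the 160 and in 33 of the 1433 (2.30%), and 104 of the 160 lay inside a coding exon. Of the 156 kept introns with letters, 129 (82.7%) had GT-AG ends, 17 had GC-AG ends and 10 had other ends, whereas 98.2% of the spliced introns had GT-AG ends. The length divided by 3 in 42.5% of the kept and in 32.0% of the spliced introns. These features come from the annotation and were not used in the rule that chose the events. Yet an annotated form keeps the intron in 1774 of the 1825 measured events, so the lists and the annotation are not independent. The features are given with no test.

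**Figure D3:**
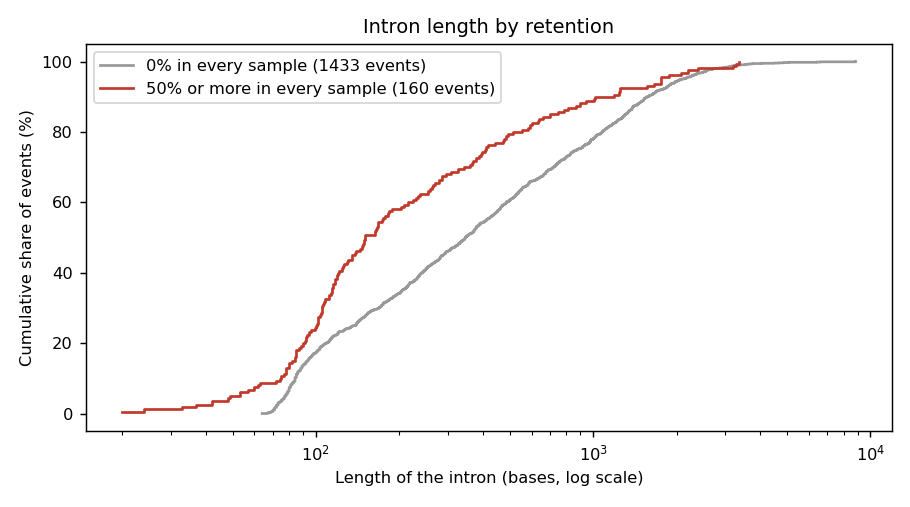
Cumulative percent of events (y axis) by intron length in bases (x axis, log scale) for the 160 events kept at 50% or more in every sample and the 1433 events at 0% in every sample. The curve of the kept introns lies to the left over most of its course, with a median of 150 bases against 346 bases.

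The 10 genes with the highest ON levels were taken from the introns kept at 50% or more in every sample. The Hsp90ab1 stretch of 37 bases, from the gene of the cytosolic chaperone HSP90 beta, had an ON form at 1900.3, 1702 and 1798 FPKM in WT, Pcgf1-/- and Pcgf1-/-+Pcgf1 with the OFF form listed at 0. It carries GC and AG at its ends and is coding sequence in the main form of the gene, so that a retention of 100% means that no removal of this stretch was estimated. The Kifc1 stretch, from a kinesin motor gene, had an ON form at 60.7, 54.8 and 46.9 FPKM and has GA and GT at its ends. Ptbp1, the polypyrimidine tract-binding splicing repressor, likewise kept its 90-base intron at chr10:79858982-79859071, with ON values of 292, 199.9 and 195 FPKM. The 85-base intron of Hsp90aa1 in the 5′ untranslated region, chr12:110695681-110695765, was at 100% in every sample although its ON form differed in level, at 138, 360 and 450 FPKM. All forms of Hsp90aa1 came to 908, 844 and 952 FPKM, so that the paired forms were only a part of the gene. Fn1 (fibronectin), Bsg, Pa2g4, Slc20a1 and Zfp106 were also among the 10 genes with the highest ON level, each at 100% in all 3 samples. Fn1 is also a feeder marker, and its kept form stood at 110, 75.7 and 74.9 FPKM.

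A smaller group of 75 events in 68 genes was kept in part, at 10% to 90% in every sample. In 34 of them the 3 samples lay within 10 percentage points of each other, and in 23 they were at least 20 points apart. The following members were picked from the 34 after their values were seen. The Taf15 intron, from a gene of the FET family of RNA-binding proteins, was kept at 41.9% in WT, 38.1% without Pcgf1 and 40.5% in Pcgf1-/-+Pcgf1. In the Hnrnpm locus retention was 18.3%, 17.8% and 17.8%, and in Hnrnpl, at chr7:28818533-28818643, it was 13.6%, 15.5% and 17.7%. Both genes encode hnRNP splicing regulators, and Pcgf1-/-+Pcgf1 differed from WT by -0.59 and 4.07 points, beside the 20 points used for a call. Adsl, an enzyme of purine synthesis, had 22.8%, 19.3% and 23.5%, and Krr1, a ribosome assembly factor, had 75.7%, 73.7% and 70.2%. The 24-base intron of Pa2g4 was at 62.1%, 68.6% and 68.6%.

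The comparison of Pcgf1-/- with WT addressed the loss of Pcgf1. Retention was higher by 20 percentage points or more in 36 events and lower in 66, and 1571 events (86.1%) had the same retention in both samples to 6 decimals. Over all 11210 measured ON and OFF pairs of the series, skipped exons included, 4.38% were higher and 4.53% lower by this rule, and over the retained introns the shares were 1.97% and 3.62%. Called events of either direction came to 102 (5.59%) beside 8.91% of all pairs. Both shares were thus below the background, and among the 9385 measured exon skipping pairs the shares were 4.85% and 4.71%. The 1433 retained introns with the kept form at 0 in every sample count in these shares but could not be called in any comparison. The median difference over the retained introns was 0. Just inside the limit of 20 points lay an intron of Tcirg1, at -20.01 points, and just outside lay one of the Snhg17 locus, at 19.97 points.

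Many of these differences ran to or from an end of the scale. Of the 66 lower events, 44 had the kept form at 0 in Pcgf1-/- and 18 were at 100% in WT. Of the 36 higher events, 17 were at 0 in WT and 12 at 100% in Pcgf1-/-. The kept form alone changed past 2-fold in 40 of the lower and 14 of the higher events, and the spliced form alone did so in 12 and 16 (pseudocount 0.1 FPKM). Introns kept by a protein-coding form gave 12 higher and 15 lower among their 194 events. Introns kept by a retained_intron form and by no protein-coding one gave 20 higher and 43 lower among their 1396.

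**Figure D4:**
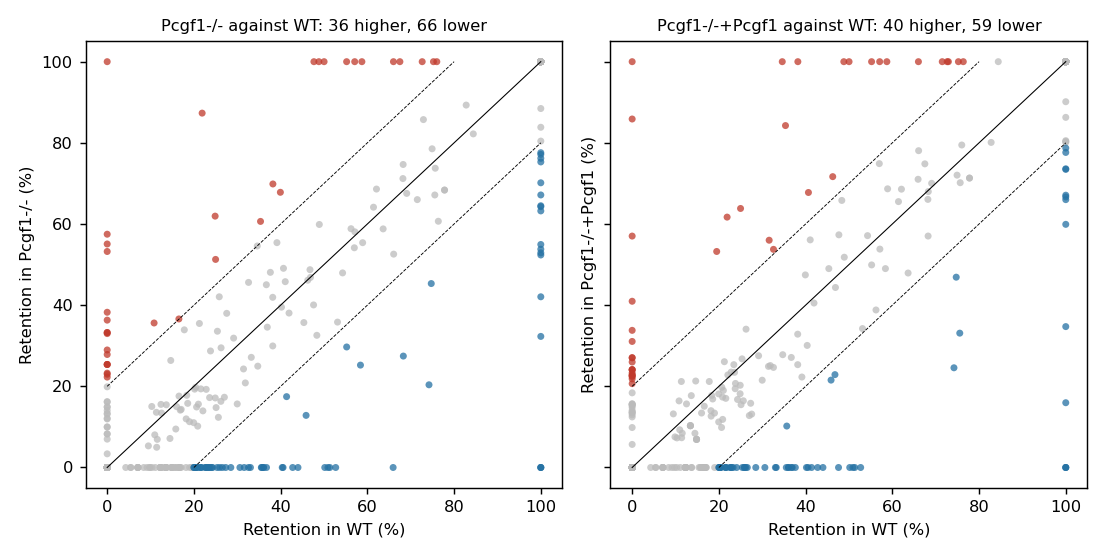
Retention (%) of the 1825 measured events in WT (x axis) against Pcgf1-/- (left) and Pcgf1-/-+Pcgf1 (right, y axes), 1 point per event, with dashed lines 20 points from the diagonal. Red points, 36 on the left and 40 on the right, lie above the upper dashed line, and blue points, 66 and 59, lie below the lower one, many of them on the axes at 0 or 100%.

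Among events with a mean ON plus OFF of at least 5 FPKM, 1 per gene, the 10 with the largest rise and the 10 with the largest fall in Pcgf1-/- were named, as a description. The largest rise was in Mrps26, a protein of the mitochondrial ribosome, at 21.9% in WT, 87.3% without Pcgf1 and 61.7% in Pcgf1-/-+Pcgf1. The spliced form stood at 71.8, 4.31 and 17.9 FPKM and the kept form at 20.1, 29.7 and 28.8 FPKM. Hence the spliced Mrps26 RNA was far lower in Pcgf1-/- and the kept RNA only somewhat higher, with Pcgf1-/-+Pcgf1 between the other samples in retention. Stk25, a serine/threonine kinase, had 24.9%, 61.9% and 18.2% for its 816-base intron at chr1:93626209-93627024. There too the spliced form was low in Pcgf1-/-, at 4.15 FPKM against 18.6 in WT and 13.5 in Pcgf1-/-+Pcgf1.

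Several rises started from a kept form that was listed at 0 in WT. Hspa5, the endoplasmic reticulum chaperone BiP, kept its 94-base intron at 0, 38.3% and 0, with the kept form at 55.6 FPKM in Pcgf1-/- alone. Ddx54, a DEAD-box RNA helicase, had 0, 36.3% and 0 at chr5:120626040-120626400. Rnf40, part of the ubiquitin ligase for histone H2B, had 0, 33.2% and 0 at chr7:127597342-127597416. In these 3 genes Pcgf1-/- stood apart, and WT and Pcgf1-/-+Pcgf1 were both at 0. Nphs1, which encodes nephrin, had 0, 33.0% and 31.1%, and an intron of the locus that holds Tbc1d22b and Rnf8 had 0, 33.3% and 41.0%. In both of these, Pcgf1-/-+Pcgf1 stood near Pcgf1-/- and not near WT.

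The other rises ended at 100% because a spliced form was listed at 0. Ttll4, a tubulin polyglutamylase, had 48.8% in WT and 100% in the other samples, with a kept form of 7.18, 7.94 and 12.1 FPKM. Myo9b, an unconventional myosin, had 67.5%, 100% and 74.8% for its 33-base stretch, with a kept form of 3.94, 4.01 and 4.62 FPKM. In both the kept form thus differed little between WT and Pcgf1-/-, and the spliced form, 7.53 FPKM in WT for Ttll4 and 1.90 for Myo9b, was listed at 0 in Pcgf1-/-.

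Wsb1, which encodes a WD-repeat and SOCS-box protein, was in both lists. One kept form, at 6.90, 4.15 and 7.06 FPKM, was paired with different spliced introns that share the end at chr11:79242157. Against the 342-base intron its retention was 57.1%, 100% and 100%, and against the 1243-base intron it was 100%, 52.4% and 100%. The kept form itself was lower in Pcgf1-/-, so that the direction of the Wsb1 difference depends on the spliced form it is set against. All forms of Wsb1 came to 27.7, 14.9 and 24.4 FPKM, so that these pairs were only a part of the gene.

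The largest fall was in Akap8l, a nuclear A-kinase anchoring protein-like gene, at 65.9% in WT, 0 without Pcgf1 and 71.0% in Pcgf1-/-+Pcgf1. Its kept form stood at 9.49, 0 and 10.4 FPKM and its spliced form at 4.90, 4.43 and 4.25 FPKM. The spliced form of Akap8l was thus close in all samples and the kept form was at 0 in Pcgf1-/- alone. These forms made up less of the gene there, since all forms of Akap8l came to 16.5, 37.7 and 14.7 FPKM and the ON and OFF forms together to 14.4, 4.43 and 14.7 FPKM. Cand1, the cullin exchange factor, had the same order at chr10:119208192-119208272, with 68.3%, 27.5% and 68.0%. No annotated form keeps the Cand1 intron, and its letters are not shown.

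In most of the other falls Pcgf1-/-+Pcgf1 stood with Pcgf1-/-. Aspm, a spindle pole protein, had 36.7%, 0 and 0, and Tsr1, a factor in small ribosomal subunit assembly, had 42.8%, 0 and 0 at chr11:74907965-74908045. Eif5b, the translation factor for subunit joining, had 36.1%, 0 and 0 at chr1:38033158-38034028, and Eps8l2, which acts on actin, had 50.2%, 0 and 0 at chr7:141341975-141342054. In these 4 genes the kept form was present in WT alone, at 4.09, 17.2, 6.55 and 2.15 FPKM in the order named. Mrps17, of the mitochondrial ribosome, had 74.2%, 20.4% and 24.6%, and the autophagy gene Becn1 had 100%, 55.0% and 34.7%. For Becn1 the kept form was at 16.9, 11.4 and 9.003 FPKM and the spliced form at 0, 9.33 and 16.9 FPKM. The Cpt1b/Chkb locus had 35.7%, 0 and 10.2%. The paired forms of Mrps17 were only a part of the gene, with ON plus OFF at 9.27, 13.0 and 14.8 FPKM. All forms of Mrps17 came to 35.4, 36.3 and 42.0 FPKM.

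**Figure D5:**
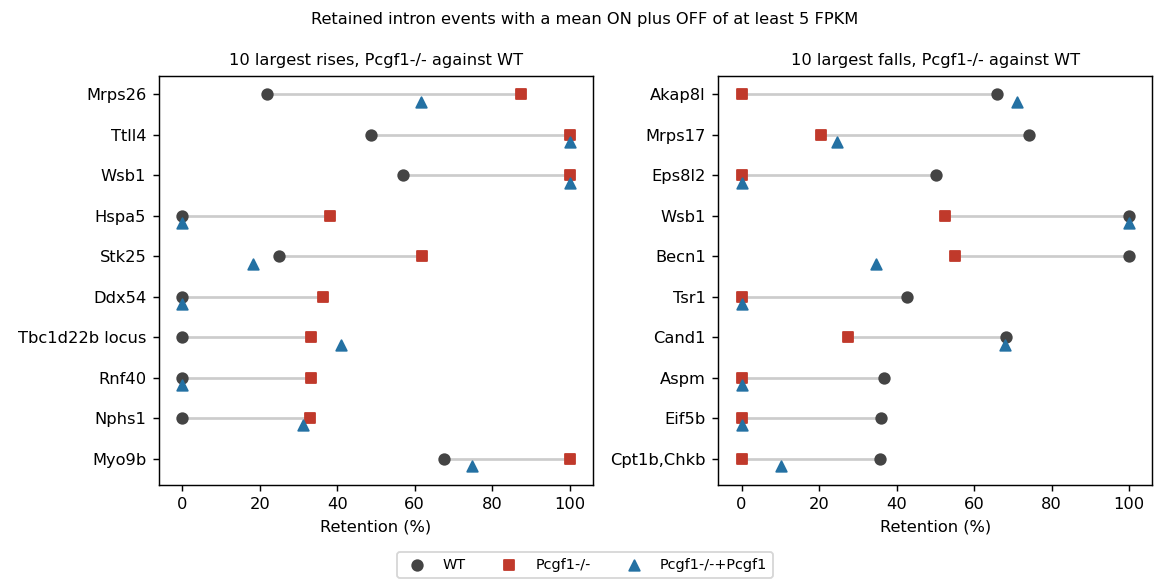
Retention (x axis, %) in WT (circles), Pcgf1-/- (squares) and Pcgf1-/-+Pcgf1 (triangles, drawn slightly lower) for the events with the 10 largest rises (left) and the 10 largest falls (right) in Pcgf1-/- against WT, with a mean ON plus OFF of at least 5 FPKM. Pcgf1-/-+Pcgf1 stood at the WT value in Hspa5, Ddx54, Rnf40 and the 1243-base Wsb1 intron and at the Pcgf1-/- value in Ttll4, the 342-base Wsb1 intron, Tsr1, Aspm, Eif5b and Eps8l2.

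The comparison of Pcgf1-/-+Pcgf1 with Pcgf1-/- addressed the return of Pcgf1. Retention was higher by at least 20 points in 37 events (2.03%) and lower in 33 (1.81%), beside 4.42% and 4.17% of all measured pairs. Both directions together gave 70 events (3.84%) beside 8.59%. Of the 37 higher events 16 were at 0 in Pcgf1-/-, and of the 33 lower events 16 were at 0 in Pcgf1-/-+Pcgf1. This comparison uses the same Pcgf1-/- sample as the one above, so that a value that was high or low in that sample alone moves both. The smallest call was in Tmem41b, at -20.02 points, and the nearest uncalled event was in Slc25a42, at 19.77 points.

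Between Pcgf1-/-+Pcgf1 and WT, 40 events were higher (2.19%) and 59 lower (3.23%), beside 4.57% and 4.67% of all pairs. Both directions together gave 99 (5.42%) beside 9.24%. The same WT sample served for Pcgf1-/- against WT, so that a value high or low in WT alone moves both comparisons. Of the 59 lower events 43 were at 0 in Pcgf1-/-+Pcgf1. Tcirg1, at -20.01 points, again lay just inside the limit and Rb1cc1, at -19.87 points, just outside. Among the 5 largest rises was Enah, an Ena/VASP protein that builds actin filaments, with 38.2% in WT, 69.9% without Pcgf1 and 100% in Pcgf1-/-+Pcgf1. The Enah spliced form stood at 60.5, 16.9 and 0 FPKM, and the stretch has CT and CC at its ends. Map7d1, a microtubule-associated protein gene, had 35.4%, 60.6% and 84.3%, and a 1918-base intron of the Snhg17 locus had 34.6%, 54.6% and 100%. In all 3, Pcgf1-/- stood between the other samples. The kept forms by themselves stood at 6.15, 11.8 and 11.3 FPKM for Map7d1 and at 1.76, 3.86 and 3.02 FPKM for Snhg17, highest in Pcgf1-/-. Ttll4 and the 342-base Wsb1 intron completed the rises. The 5 largest falls were Becn1, Eps8l2, Mrps17 and Tsr1, given above, and Fastkd2, of mitochondrial RNA granules, with 75.6%, 67.2% and 33.1%.

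Gene lists were read as counts, beside 36 higher and 66 lower of the 1825 measured events in Pcgf1-/- against WT. For Pcgf1-/-+Pcgf1 the counts beside them are 37 higher and 33 lower against Pcgf1-/-, and 40 higher and 59 lower against WT. The median difference was 0 in every list with a measured event. The splicing factor lists held no call in any of the 3 comparisons. Their kept introns are counted list by list here, beside 1433 of all 1825 measured events with the kept form at 0 in every sample. Of 16 SR protein genes 5 had 8 measured events, of which 2 were kept, both in Srsf5. Its 1229-base intron, at chr12:80947866-80949094, was kept at 19.0%, 11.3% and 13.4%. Of 23 hnRNP genes 5 had 9 measured events, of which 5 were kept in some sample, among them one of Hnrnph1 at 13.7% in WT and 0 elsewhere. The 33 snRNP and spliceosome core genes had 11 measured events, none of them kept. The RNA-binding motif and DEAD-box list had 11 measured events and 4 kept ones. One of them, of 1265 bases in the Ddx5 locus, had 18.2%, 0 and 14.0%, under the limit. Among the 7 CLK and SR protein kinase genes, 1 of 6 measured events was kept, in the Clk4 locus, at 25.6%, 12.4% and 16.4%.

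The Polycomb and pluripotency lists held few measured events, and 1 event in each list had a kept form. Of 28 PRC1 genes 5 had 1 measured event each, and of these Mga alone, which encodes a Max partner found in PRC1.6, had a kept form. Mga retention was 26.2% in WT, 16.3% without Pcgf1 and 0 in Pcgf1-/-+Pcgf1, with a kept form of 4.398, 2.90 and 0 FPKM, and the step from WT to Pcgf1-/-+Pcgf1 was the only call in this list. The 12 PRC2 genes had 4 measured events. The 80-base intron of Mtf2, at chr5:108080842-108080921, was at 100% in every sample, and those of Ezh2, Jarid2 and Phf19 were at 0. In the annotation a protein-coding form keeps this Mtf2 stretch, and only a form of the biotype processed_transcript removes it. Its 100% thus means that no removal of the stretch was estimated. Of 21 pluripotency genes only Sall4 had a measured event, at 100% in every sample. That Sall4 stretch too is kept by a protein-coding form, and its removal was listed at 0. The O-GlcNAc enzymes had none. The RNA polymerase II and Mediator list had 11 measured events with 2 kept, in Ccnl2 at 100% in every sample and in the Med12 locus at 69.1%, 67.5% and 70.03%.

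The snoRNA host genes had the most measured events of any list. Of 26 host genes 10 had 32 measured events, and the kept form was above 0 in 15 of these in WT, 6 without Pcgf1 and 11 in Pcgf1-/-+Pcgf1. Over all 1825 measured events it was above 0 in 339, 285 and 294. Many of them share a kept form, so that they are not separate measurements. Gas5 had 1 kept form in 4 events, at 23.5, 0 and 10.7 FPKM, which gave a retention of 14.9%, 0 and 6.93%. Snhg1 likewise had 1 kept form in 4 events, at 7.07% in WT and listed at 0 in the other samples. Snhg5, at chr9:88521976-88522306, had 27.3%, 0 and 15.8%. Gas5, Snhg1 and Snhg5 were thus all kept in WT and at 0 in Pcgf1-/-, and of their events that of Snhg5 alone passed 20 points. The calls of this list in Pcgf1-/- against WT were 1 higher and 2 lower, and those in each comparison of Pcgf1-/-+Pcgf1 were 2 higher and 0 lower. Besides Snhg5 those of Pcgf1-/- were in the Snhg17 locus, where a 941-base intron had 58.7%, 100% and 100% and a 1031-base intron had 58.4%, 25.2% and 49.0%.

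Cytosolic ribosomal protein genes were spliced almost throughout. Of 78 genes 16 had 18 measured events, and 17 of these were at 0 in every sample, beside 1433 of all 1825 measured events. Some genes, such as Rpl3, are in both this list and that of the snoRNA hosts. The exception was a 90-base intron of Rps18, at chr17:33952313-33952402, kept at 0 in WT, 12.1% without Pcgf1 and 0 in Pcgf1-/-+Pcgf1, with a kept form of 305 FPKM beside a spliced form of 2903, 2215 and 3141 FPKM. The feeder list had measured events in Fn1 alone.

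Some retained intron events stood in 1 list only and could not be compared. WT had 291 of these, 105 of them with a kept form of at least 1 FPKM. Pcgf1-/- had 180, with 39 such forms, and Pcgf1-/-+Pcgf1 had 223, with 48. WT thus had the most events in 1 list only, as well as the most measured events with a kept form. Matching used the gene name as well as the coordinates, so a locus named differently between lists would not match. Loci with several names held 107 of the 291, 76 of the 180 and 79 of the 223. Of the 1825 measured events, 238 lay in loci with several names, none or a date. The part of naming in these counts was not tested.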

How the data were processed

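Poly-A selected RNA from 3 samples, 1 per genotype, was sequenced as 150-base paired reads. Per the submitters' processing notes and the study's methods, the authors aligned reads to mm10 with TopHat2 2.0.12, and Cufflinks 2.2.1 and HTSeq 0.6.0 were used. The deposited lists give 1 FPKM per event form, and the program that wrote them is not given in the sources used here. FPKM are model estimates for reconstructed transcripts, so that a value of 0 can be a failed estimate and forms of 1 gene depend on each other.

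Here (Python 3.11.15, pandas 2.3.3, numpy 2.4.6, matplotlib 3.10.9) IR, XIR, MIR and XMIR rows at the same coordinates were joined, and the FPKM of distinct patterns summed. The lists give the flanking exon bases, and introns were taken as the bases between. Retention was rounded to 6 decimals. Events had to be above 0 in all 3 samples with a mean ON plus OFF of at least 1 FPKM, and a difference of 20 points was called. Gene-level FPKM is the larger of the summed first-exon and last-exon values. Biotypes and letters came from GENCODE vM21. The code was tested on simulated data. Named events were the largest differences (10 per direction for Pcgf1-/- against WT, 5 for Pcgf1-/-+Pcgf1 against WT, mean ON plus OFF of at least 5 FPKM), the 10 genes with the highest kept forms, and up to 4 events per gene list. Events from the lists with a kept form, and those kept in part, were added after their values were seen. The members, lists and rules were chosen with earlier results of these data known. With 1 sample per genotype no test was made, and the values in other settings are in the closing section. One of the 10 genes with the highest kept forms is not reported here.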

Additional observations from a re-analysis of the deposited data

How the results depend on the processing

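Counts below are given as higher/lower for Pcgf1-/- against WT, Pcgf1-/-+Pcgf1 against Pcgf1-/-, and Pcgf1-/-+Pcgf1 against WT, in that order, against 36/66, 37/33 and 40/59 as reported. A minimum mean of 0.1 FPKM gave 56/104, 61/55 and 57/94, one of 5 FPKM gave 18/25, 16/19 and 21/26, and no minimum gave 63/110, 65/62 and 61/100. A call at 10 points gave 58/109, 69/58 and 58/99, and one at 30 points gave 20/35, 19/19 and 18/30. Calling the kept form past 2-fold gave 36/126, 58/44 and 39/103 with a pseudocount of 0.1 FPKM and 19/67, 25/18 and 23/53 with 1 FPKM. One event per gene gave 24/47, 32/22 and 28/37. Without events kept by a protein-coding transcript, a setting added after the data were seen, the counts were 24/51, 21/26 and 26/49. The other settings, 3 of them also added afterwards, moved no count by more than 1.5 times. Lower events exceeded higher ones against WT in 15 of 15 other settings for both Pcgf1-/- and Pcgf1-/-+Pcgf1, and in 2 of 15 for Pcgf1-/-+Pcgf1 against Pcgf1-/-. Both comparisons against WT use the same WT sample, and the settings reuse the same values, so that these counts are not separate results. WT had the largest share of events kept above 0 in 11 of 11 other settings, and over these and the reported one stood at 11.3% to 21.5%, with Pcgf1-/- at 8.03% to 17.9% and Pcgf1-/-+Pcgf1 at 8.40% to 18.7%. The median retention was 0 in all of them.

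On the log2 scale of the kept form, with pseudocounts of 0.1 and 1 FPKM, 4 of the 53 called differences of named events turned in sign: the 342-base Wsb1 intron in Pcgf1-/- against WT (-0.721 and -0.619) and, in Pcgf1-/-+Pcgf1 against Pcgf1-/-, Map7d1 (-0.0632 and -0.0587), the 1918-base Snhg17 intron (-0.345 and -0.275) and Myo9b (0.201 and 0.167). In each the spliced form, which this scale leaves out, carried the difference in retention. Of 199 named differences under 20 points, 10 turned, among them Cand1 in Pcgf1-/-+Pcgf1 against WT. No paired analysis was possible because each genotype has 1 sample and the labels give no replicate numbers, and for the same reason no sample could be left out. Values of 0 are model estimates and were not checked against reads.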
